A study of Mus musculus with 8 samples.

Results

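The histone lysine demethylases described here are 10 genes: Kdm6a and Kdm6b, Kdm3a and Kdm3b, Kdm4a, Kdm4b and Kdm4c, Kdm5a and Kdm5b, and Kdm1a. They were chosen by symbol, at a time when earlier results of these data were known. All 10 were present in the deposited table of 18877 genes. All 10 also passed the filter on low values, a mean of at least 10 normalized reads over the 8 libraries, which left 11754 genes for testing.

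Histone lysine demethylases remove methyl groups from the tails of histone H3 and so oppose the methyltransferases that place them. Most carry a JmjC domain and need oxygen, iron and 2-oxoglutarate, whereas KDM1A uses a flavin cofactor. Methylation of lysine 27 and lysine 9 accompanies silent chromatin and methylation of lysine 4 accompanies active promoters, and removal of the mark on lysine 27 from muscle genes is a known step of the myogenic program.

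The study compared 4 wild-type with 4 mfn2-/- RNA-seq libraries of ASCs, activated muscle stem cells, which have left quiescence in response to injury. All mice carried a mito-Dendra2 allele, a fluorescent mitochondrial label, switched on by the Pax7-Cre(ERT2) driver. This driver is meant to limit the label and the recombination to cells that express Pax7, the muscle stem cell factor. Tamoxifen was given at 75 mg/kg once daily for 5 days, the tibialis anterior was injured 2 days after the last dose with 50 µL of 1.2% BaCl2, and CD34-, Dendra2+, DAPI- cells were sorted 2 days after injury. The labels give no age and do not say that libraries came from separate animals, so p-values measure the spread between these libraries, which may be technical in part.

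Depth ranged from 1880464 to 7508215 reads and did not differ detectably between genotypes (p = 0.943, two-sided exact permutation test, n = 4 per group, smallest possible p 0.0286). Replicate 4 of mfn2-/- stood apart by more than depth, with 9646 genes detected against 12613 to 15270 in the other libraries and 6.03% of reads from the small nuclear RNA gene Rn7sk against 0.365% to 1.54%. Mfn2 (mitofusin 2), the targeted gene, gave 243, 245, 202 and 228 normalized reads in wild-type and 104, 118, 172 and 110 in mfn2-/- libraries, a log2 change of -0.88 (limma adjusted p = 0.0848; exact permutation p = 0.0286, n = 4 per group). The reads of Mfn2 were counted over the whole gene, so they include any exons outside the deleted part. Reads of the Y-linked genes Ddx3y and Eif2s3y were at 0 in 4 libraries, wild-type replicates 1 and 2 with mfn2-/- replicates 3 and 4. They summed to 645 and 990 in wild-type replicates 3 and 4 and to 1484 and 1892 in the first pair of mfn2-/- replicates. Each genotype thus held 2 libraries with and 2 without Y-linked reads, here called the library kind. Within a genotype this kind and the pair of replicate numbers cannot be told apart. In wild-type, depth also went with the kind, at 1880464 and 4080836 reads without and 4963593 and 7508215 with Y-linked reads. In mfn2-/- libraries it was 5050798 and 2269009 without and 6199866 and 5115404 with them. Kind and depth therefore cannot be told apart in wild-type. Of the 9 markers of muscle stem cells, Pax7 and Myf5 were detected in every library, at 582 to 803 and 176 to 258 normalized reads, and 3 of 9 (Myod1, Sdc4 and Des) were called higher in mfn2-/- libraries, where 3.99% of all genes tested were called higher. The median log2 change of the 9 was 0.10, and Itga7 had a log2 change of -0.87 that did not pass (limma adjusted p = 0.110). The summed level of the 9 was 9724 to 14105 in wild-type and 26876 to 39217 in mfn2-/- libraries. Sdc4 alone had means of 4271 and 17473, and Des of 2156 and 7969. Of the 12 markers of fibroadipogenic cells and tenocytes, 11 were called lower in mfn2-/- libraries, against 748 of all 11754 genes tested. The summed level of the 12 was 207051 to 292392 in wild-type and 1294 to 3581 in mfn2-/- libraries. Col1a1 and Dcn were above 0 in all 8 libraries, at means of 106037 and 11218 in wild-type and 334 and 96.6 in mfn2-/- libraries. Pdgfra was at 0 in mfn2-/- replicate 4, Lum in mfn2-/- replicates 1 and 4, and Tnmd and Mfap5 in mfn2-/- replicates 3 and 4. Of the macrophage and endothelial markers, 0 of 4 tested and 0 of 6 were called, against 10.4% of all genes tested. Summed markers of macrophages (31.9 to 118 in wild-type, 85.3 to 157 in mfn2-/-, with Ptprc at 0 in 4 libraries) and of endothelium (943 to 1289 and 1037 to 1606) overlapped between genotypes. The genotypes therefore differed in markers of another cell type across every comparison below, and the part this plays in the demethylase values was not tested. In bulk libraries, fewer cells of a type and less RNA per cell cannot be told apart.

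None of the 10 demethylases was called between mfn2-/- and wild-type ASCs at an adjusted p under 0.05 (limma on log2(normalized reads + 1), Benjamini-Hochberg over 11754 genes), whereas 10.4% of all genes tested were called. At an unadjusted limma p under 0.05 there were 2 of 10, Kdm6b and Kdm3a, against 2918 of all 11754 genes tested. On the recovered reads, edgeR and DESeq2 called 0 of 10 as well. Without mfn2-/- replicate 4 limma also called 0 of 10, and none of the 10 fitted changes turned sign. The fitted log2 changes (mfn2-/- minus wild-type) ran from -0.34 for Kdm4c to 0.88 for Kdm6b, 6 positive and 4 negative, with a median of 0.09 against -0.16 over all genes tested. The values of the genotypes did not overlap for 1 of 10 members, Kdm3a, against 19.5% of all genes tested. The median over all genes moved with the scaling, from -0.16 as deposited to -0.11 with equal totals and 0.13 with quantile normalization, so a change near 0 has no fixed sign relative to the other genes.

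**Figure D1:**
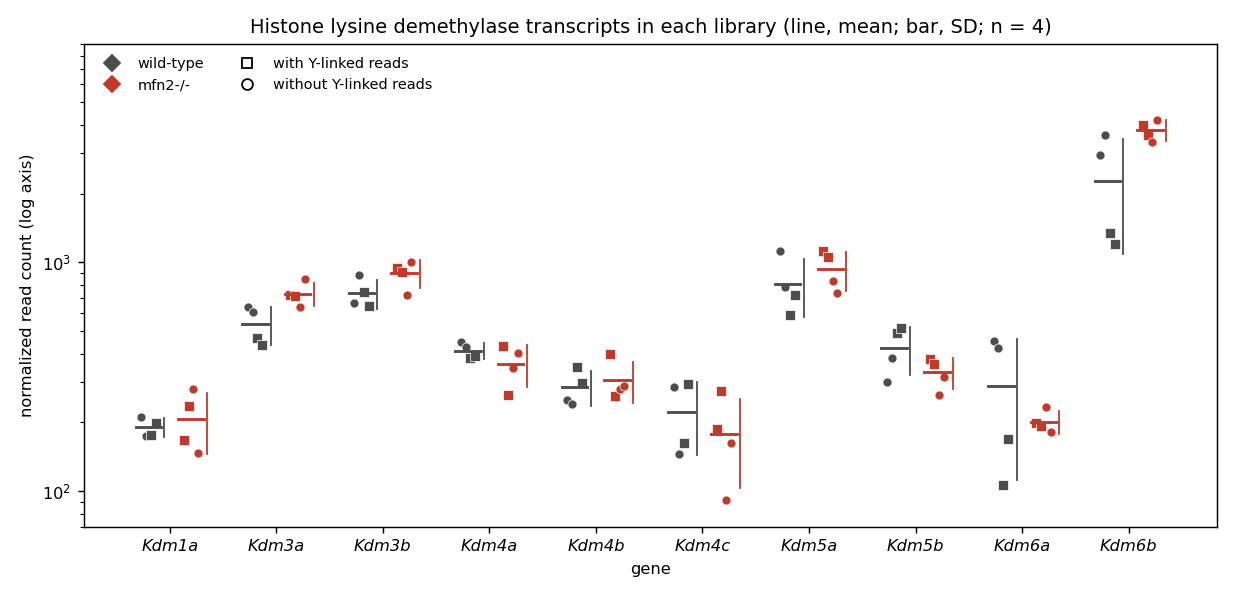
Normalized read count (log axis) of the 10 demethylases in each library, wild-type in grey and mfn2-/- in red, squares for libraries with and circles for libraries without Y-linked reads. Lines are means and bars are SDs of 4 libraries; the wild-type values of Kdm6b and Kdm6a fall into a high and a low pair, while the mfn2-/- values lie close together.

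KDM6A and KDM6B remove di- and trimethylation of H3K27, the mark placed by Polycomb repressive complex 2. Kdm6b (chromosome 11) gave 2952, 3613, 1348 and 1205 normalized reads in wild-type replicates 1 to 4 and 3985, 3592, 3342 and 4206 in mfn2-/- replicates 1 to 4. Wild-type replicates 3 and 4 were the low ones, and wild-type replicate 2 lay within the mfn2-/- range. The means were 2280 ± 1190 and 3781 ± 387 (SD, n = 4), a 1.66-fold ratio, and the log2 change was 0.88 (SE 0.31, 95% interval 0.21 to 1.56, limma adjusted p = 0.0947). The spread among wild-type libraries was wide, with a coefficient of variation of 52.2%, against 10.2% among mfn2-/- libraries.

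The genotype difference of Kdm6b was uneven between the library kinds. Among libraries with Y-linked reads the log2 difference of means was 1.57, and among libraries without them it was 0.20. The difference between these, 1.37 (SE 0.23, 95% interval 0.86 to 1.88), passed the interaction test (limma adjusted p = 0.0173), making Kdm6b 1 of 10 members called there against 1.47% of all genes tested. The mfn2-/- means of the kinds were 3789 with and 3774 without Y-linked reads, against 1277 and 3282 in wild-type, so the split lay in the wild-type libraries. The interaction was not called when any 1 wild-type replicate was left out (adjusted p 0.0506, 0.0692, 0.0752 and 0.118), without mfn2-/- replicate 1 (0.158) or 2 (0.104), or with no intensity trend (0.417). Summed fibroadipogenic and tenocyte markers were 214824 and 207051 in wild-type replicates 1 and 2 and 292392 and 280330 in replicates 3 and 4, and the part of this in the split was not tested.

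With the library kind as a term in the fit, Kdm6b was called for genotype (log2 change 0.88, limma adjusted p = 0.0364). It was also called after quantile normalization (0.90, adjusted p = 0.0298), with library weights (1.29, adjusted p = 1.4e-04) and without wild-type replicate 2 (1.16, adjusted p = 0.0291). Without wild-type replicate 3 or 4 the log2 change was 0.68 or 0.63, with adjusted p of 0.246 in each case. The direction was the same in every alternative run, while the call depended on which wild-type libraries entered and on the fit.

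Kdm6a (X chromosome), whose protein also works in the H3K4 methyltransferase complexes of KMT2C and KMT2D, gave 453, 423, 106 and 169 normalized reads in wild-type and 199, 192, 234 and 181 in mfn2-/- libraries. The mfn2-/- values all lay between the high wild-type pair, replicates 1 and 2, and the low pair, replicates 3 and 4. The log2 change was -0.27 (SE 0.43 and limma adjusted p = 0.740), and it turned positive with library weights (0.25), without wild-type replicate 1 (0.03) and without the 2 shallowest libraries (0.08), so no direction is given. The coefficient of variation was 61.0% for wild-type against 11.4% for mfn2-/- libraries, the same ordering as for Kdm6b, although wild-type was the more variable group for only 6 of 10 members.

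The genotype difference of Kdm6a was 0.54 among libraries with Y-linked reads and -1.08 among those without. This interaction, 1.62 (SE 0.51, 95% interval 0.49 to 2.75), did not pass in limma (adjusted p = 0.221), while DESeq2 on the recovered reads gave an adjusted p of 0.0310. Uty, the Y-linked paralog of Kdm6a, gave 0, 0, 50.6 and 134 normalized reads in wild-type and 175, 168, 0 and 0 in mfn2-/- libraries. The sum of both genes was 453, 423, 157 and 303 in wild-type and 373, 360, 234 and 181 in mfn2-/- libraries, so the genotypes overlapped in the sum as well.

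**Figure D2:**
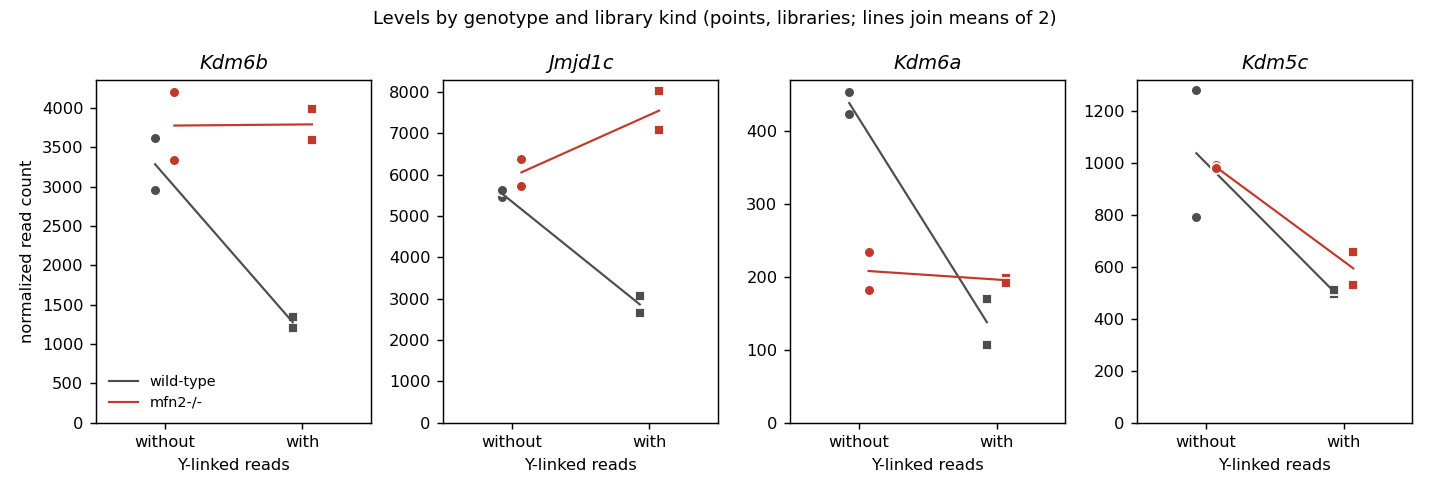
Normalized read count of Kdm6b, Jmjd1c, Kdm6a and Kdm5c (linear axes from 0) in libraries without and with Y-linked reads, wild-type in grey and mfn2-/- in red, with each library as a point and lines joining the means of 2 libraries. The wild-type lines of Kdm6b and Jmjd1c drop, from 3282 to 1277 and from 5540 to 2863, while the mfn2-/- lines do not, and both genotypes of Kdm5c slope the same way.

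KDM3A and KDM3B demethylate mono- and dimethylated H3K9, and Kdm3a is a known target of HIF1A, the hypoxia-inducible transcription factor. The paper also names KDM4B, KDM4C and KDM6B as HIF1A targets. Their transcripts had log2 changes of 0.10, -0.34 and 0.88 here, none with a limma adjusted p under 0.05. Kdm3a (chromosome 6) gave 639, 607, 466 and 438 normalized reads in wild-type and 721, 715, 641 and 847 in mfn2-/- libraries. The groups were apart by only 2 normalized reads at their edge, from wild-type replicate 1 at 639 to mfn2-/- replicate 3 at 641. The means were 537 ± 100.2 and 731 ± 85.2 (SD, n = 4), a ratio of 1.36, and the log2 change was 0.46 (SE 0.20, 95% interval 0.02 to 0.90, limma adjusted p = 0.186). Kdm3a was called with library weights (0.58, adjusted p = 0.0101) and in no other alternative run. Hif1a itself gave 1089, 739, 784 and 634 normalized reads in wild-type and 2875, 3366, 2987 and 2320 in mfn2-/- libraries, a called log2 change of 1.85 (limma adjusted p = 7.97e-05).

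Kdm3b gave 662, 883, 743 and 643 normalized reads in wild-type and 945, 912, 722 and 1008 in mfn2-/- libraries. Only mfn2-/- replicate 3 lay within the wild-type range. The log2 change was 0.29 (SE 0.19, 95% interval -0.12 to 0.71, limma adjusted p = 0.384).

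KDM4 proteins remove di- and trimethylation of H3K9 and H3K36, and the values of all 3 measured KDM4 genes overlapped between the genotypes. Kdm4a (chromosome 4) gave 450, 428, 381 and 389 normalized reads in wild-type and 432, 262, 346 and 403 in mfn2-/- libraries, a log2 change of -0.21 (SE 0.23 and limma adjusted p = 0.607). Mfn2-/- replicate 2 was the low library and the other 7 lay between 346 and 450. Kdm4b (chromosome 17) gave 250, 242, 349 and 299 in wild-type and 399, 260, 279 and 288 in mfn2-/- libraries, a log2 change of 0.10 (SE 0.25, adjusted p = 0.840). Kdm4c (chromosome 4) gave 284, 145, 163 and 293 in wild-type and 187, 273, 91.4 and 163 in mfn2-/- libraries, a log2 change of -0.34 (SE 0.39, adjusted p = 0.629). Kdm4c had the widest spread within mfn2-/- libraries of the 10 members, a coefficient of variation of 42.0%. For Kdm4c the 95% interval of the change, -1.18 to 0.49, reached a halving on the linear scale, so the data do not bound it narrowly.

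KDM5 proteins remove di- and trimethylation of H3K4 at promoters. Kdm5a (chromosome 6) gave 1126, 782, 590 and 721 normalized reads in wild-type and 1119, 1052, 831 and 733 in mfn2-/- libraries, a log2 change of 0.23 (SE 0.23 and limma adjusted p = 0.572). The highest library of either genotype was at nearly the same level. The genotype difference of Kdm5a was 0.73 with and -0.26 without Y-linked reads, an interaction of 1.00 (SE 0.31) that did not pass in limma (adjusted p = 0.219), while DESeq2 gave an adjusted p of 0.0221. Over the 9 members other than Kdm6b the limma interaction p values ran from 0.219 to 0.995 after adjustment. Kdm5a was called for genotype with library weights only (0.56, adjusted p = 0.0167). Kdm5b (chromosome 1) gave 300.2, 384, 490 and 516 in wild-type and 379, 361, 265 and 317 in mfn2-/- libraries, a log2 change of -0.33 (SE 0.25, 95% interval -0.87 to 0.20, adjusted p = 0.437). The fitted change of Kdm5b was negative in both kinds, -0.44 with and -0.23 without Y-linked reads, and the genotypes overlapped.

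KDM1A removes mono- and dimethylation of H3K4 within the CoREST complex. Kdm1a (chromosome 4) gave 212, 175, 176 and 199.8 normalized reads in wild-type and 168, 235, 279 and 147 in mfn2-/- libraries. All 4 wild-type values lay inside the mfn2-/- range. The log2 change was 0.08 (SE 0.30, 95% interval -0.57 to 0.72, limma adjusted p = 0.899), and without mfn2-/- replicate 3 it was -0.08.

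No member was called between the library kinds with genotype in the fit, where 0.221% of all genes tested were called. The smallest adjusted p among the members was 0.389, for Kdm6b, and Kdm6a, which is known to escape X inactivation, gave a log2 difference of -0.89 (with minus without Y-linked reads, SE 0.35, limma adjusted p = 0.433).

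To compare levels between genes, normalized reads were divided by the exon length of each gene in kb. Kdm6b was the most abundant member per kb in both genotypes, at 328 ± 171 normalized reads per kb in wild-type and 544 ± 55.7 in mfn2-/- libraries (SD, n = 4). Its range did not meet that of the gene next in order, Kdm4a in wild-type (71.3 ± 5.67) and Kdm3a in mfn2-/- libraries (88.9 ± 10.4). All neighbours below Kdm6b overlapped in their ranges, so the order of genes next to each other is not resolved. It also depended on the length used: with the longest transcript in place of all exons, the wild-type mean of Kdm3b went from 52.0 to 115 and that of Kdm3a from 65.3 to 111, above Kdm4a at 88.4, and Kdm6b stayed first at 343.

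In wild-type the means per kb ran on through Kdm3a (65.3), Kdm4b (58.2), Kdm5a (56.8), Kdm3b (52.0), Kdm4c (38.0), Kdm1a (36.8) and Kdm6a (34.3) to Kdm5b (25.5). In mfn2-/- libraries they ran through Kdm5a (66.0), Kdm3b (63.6), Kdm4b (62.6), Kdm4a (62.4), Kdm1a (40.0), Kdm4c (30.7) and Kdm6a (24.0) to Kdm5b (19.96). Of the summed level per kb of the 10 genes, Kdm6b made up 46.2%, 53.7%, 33.1% and 29.3% in wild-type and 53.3%, 52.8%, 53.5% and 57.2% in mfn2-/- libraries. Wild-type replicates 3 and 4 again were the low ones, and with the longest transcript as the length the shares were lower, 22.3% to 44.1% in wild-type and 43.0% to 47.3% in mfn2-/- libraries.

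**Figure D3:**
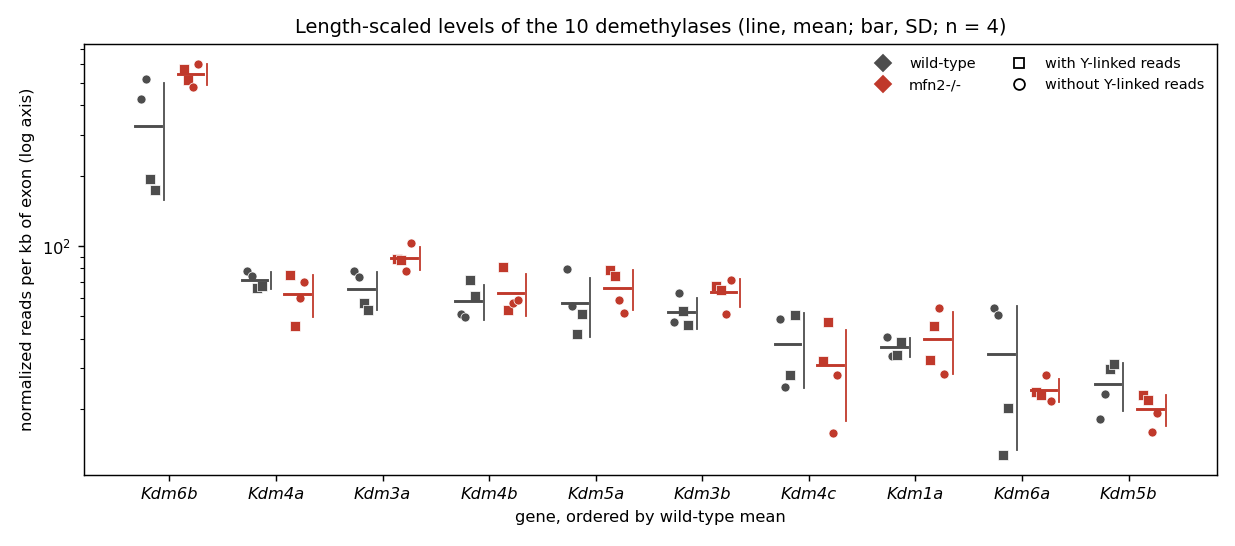
Normalized reads per kb of exon (log axis) of the 10 demethylases, ordered by the wild-type mean, with wild-type in grey and mfn2-/- in red and squares for libraries with Y-linked reads. Lines are means and bars are SDs of 4 libraries; Kdm6b stands above the other 9, whose ranges overlap from neighbour to neighbour.

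Of the other histone demethylases, 15 of 16 listed genes were matched in the table, 14 of them passed the filter, and 1 of 14 was called, against 10.4% of all genes tested. This was Jhdm1d, the current Kdm7a, a demethylase of H3K9 and H3K27, with 682, 948, 645 and 528 normalized reads in wild-type and 1015, 1431, 1405 and 1400 in mfn2-/- libraries. The genotypes did not overlap. The log2 change was 0.92 (SE 0.22, 95% interval 0.46 to 1.39, limma adjusted p = 0.0156), and the differences within the kinds were 1.04 with and 0.80 without Y-linked reads. The call was lost with no intensity trend (adjusted p = 0.115) and without wild-type replicate 3 (0.0509), wild-type replicate 4 (0.0560) or mfn2-/- replicate 2 (0.0508).

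Jmjd1c, a JmjC protein related to Kdm3a, gave 5456, 5624, 3078 and 2649 normalized reads in wild-type and 7074, 8030, 5732 and 6386 in mfn2-/- libraries. The genotypes did not overlap, and wild-type replicates 3 and 4 were low, as for Kdm6b. The log2 change of 0.76 (SE 0.26) did not pass (limma adjusted p = 0.0790), and the call was made with equal totals (0.81, adjusted p = 0.0472), quantile normalization (0.93, 0.0035), library weights (1.22, 6.7e-05) and the replicate block (0.76, 0.0351). The genotype difference was 1.40 with and 0.13 without Y-linked reads, and this interaction of 1.27 (SE 0.18) passed (limma adjusted p = 0.00732). That call was lost with quantile normalization (0.64, adjusted p = 0.0838), with no intensity trend (0.417), and without wild-type replicate 1, 2 or 4 or mfn2-/- replicate 1 or 2 (0.0511 to 0.0735).

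The remaining demethylases were not called for genotype. The log2 changes were 0.87 for Phf8 (limma adjusted p = 0.157), 0.49 for Phf2 (0.241), 0.93 for 2410016O06Rik, the current Riox1 (0.602), 0.49 for Mina, the current Riox2 (0.746), and -0.64 for Hr (0.128). They were 0.39 for Kdm2b (0.652), 0.19 for Kdm1b (0.797), 0.06 for Jmjd6 (0.955) and -0.16 for Kdm2a (0.726). Phf8 and Phf2 encode PHD-finger demethylases related to KDM7A. Phf8 was called with library weights, and Jmjd5 (the current Kdm8) stayed below the filter at 0 to 11.2 normalized reads.

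The KDM5 group also has a Y-linked and an X-linked member outside the 10. Kdm5d and Uty, both Y-linked, were called for library kind (limma adjusted p = 0.0212 each). This follows from the grouping, because the kind was itself set by Y-linked reads. Kdm5d, on the Y chromosome, gave 0, 0, 81.7 and 137 normalized reads in wild-type and 83.3, 183, 0 and 0 in mfn2-/- libraries. Kdm5c, its X-linked relative that is known to escape X inactivation, gave 1283, 794, 498 and 513 in wild-type and 659, 531, 993 and 980 in mfn2-/- libraries. Its log2 difference with minus without Y-linked reads was -0.87 (SE 0.20, 95% interval -1.29 to -0.44, limma adjusted p = 0.123), and all 4 libraries without Y-linked reads lay above the 4 with them. Between genotypes the log2 changes were 0.10 for Kdm5c (adjusted p = 0.876), 0.11 for Kdm5d (0.982) and 0.52 for Uty (0.905).

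**Figure D4:**
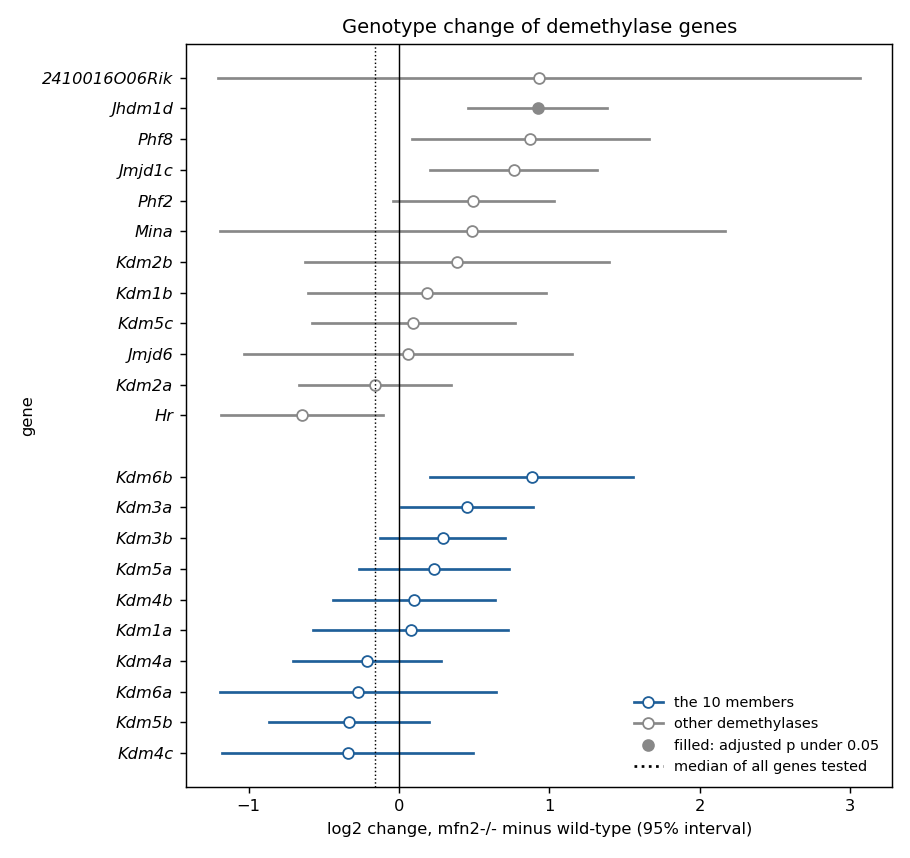
Log2 change (mfn2-/- minus wild-type, limma) with its 95% interval for the 10 members in blue and 12 other demethylases in grey, with filled circles where the adjusted p was under 0.05 and a dotted line at the median of all genes tested, -0.16. The only filled circle is Jhdm1d at 0.92; of the members, the intervals of Kdm6b (0.21 to 1.56) and Kdm3a (0.02 to 0.90) lie above 0.

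Of 31 genes that place or regulate histone lysine methylation, 30 passed the filter. Of these, 1 of 30 was called, against 10.4% of all genes tested. This was Mll5, the current Kmt2e, an H3K4me3-binding SET domain protein, with 762, 638, 1046 and 1014 normalized reads in wild-type and 1502, 1683, 1271 and 1439 in mfn2-/- libraries. The log2 change was 0.79 (SE 0.20 and limma adjusted p = 0.0260), and the call was lost in 7 alternatives, with adjusted p of 0.0571 to 0.148. At an unadjusted limma p under 0.05 there were 12 of the 30 genes, against 2918 of all 11754 genes tested. The genotypes did not overlap for 9 of the 30, against 19.5% of all genes tested. Among the 10 tested genes of H3K27 methylation, which include Polycomb repressive complex 2, 9 had a positive and 1 a negative fitted change. Over all 11754 genes tested, 5191 were positive and 6563 negative. The median of the 10 was 0.64, against -0.16 over all genes tested, and 0 of 10 were called. Their smallest adjusted p values were 0.0940 for Suz12 (log2 change 0.72) and 0.111 for Aebp2 (0.74). The H3K9 genes had a median log2 change of -0.10 with 0 of 7 called, where the smallest p values were those of Prdm2 (0.40, adjusted p = 0.176) and Setdb2 (2.14, 0.378). Setdb2 gave 0, 2.07, 107 and 90.3 normalized reads in wild-type and 48.7, 69.5, 48.6 and 64.1 in mfn2-/- libraries, so its fitted change rests on wild-type replicates 1 and 2, and the ratio of means was 1.16. The H3K4 genes had a median of 0.08 with 1 of 8 called, and the H3K36 genes had a median of 0.05 with 0 of 5 called, led by Ash1l (0.47, adjusted p = 0.0875) and Nsd1 (-0.42, 0.173).

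Of 15 subunits of the complexes in which KDM1A and KDM6A act, 0 of 15 were called by limma, against 10.4% of all genes tested. At an unadjusted limma p under 0.05 there were 0 of 15, against 2918 of all 11754 genes tested, and edgeR and DESeq2 called 0. Some of the 15 were weakly detected, with Rcor3, Ash2l and Dpy30 at 0 in at least 1 library. The smallest adjusted p values were 0.274 for Hdac1 (log2 change 0.41), a histone deacetylase of the CoREST complex, and 0.280 for Paxip1 (0.66), a subunit of the KMT2C and KMT2D complexes.

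The genes whose log2 values were most like those of Kdm6b over the 8 libraries, out of 5584 genes whose mean reached 100, were Cdk12 (Pearson r = 0.994), Nfkbib (0.986), Tubb6 (0.982), Maml1 (0.982) and Nav2 (0.980). Cdk12, a transcriptional kinase, gave 860, 1032, 583 and 519 normalized reads in wild-type and 1143, 985, 982 and 1114 in mfn2-/- libraries. Tubb6, a beta-tubulin, gave 1044, 997, 378 and 341 in wild-type and 1486, 1413, 1329 and 1631 in mfn2-/- libraries. The low wild-type replicates 3 and 4 were shared by all 5 genes, which follows from choosing them by their likeness to Kdm6b. These correlations rest on the same 8 libraries, in which genotype, kind and depth also vary.

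Promoter sequence is shown for Kdm3a, the member whose genotypes did not overlap, for Kdm4c, the member with the most matches, and for Kdm7a (Jhdm1d), the called relative, because Hif1a transcript differed between the genotypes and its protein binds the letters ACGTG or GCGTG. The windows are the 250 bases before a RefSeq transcript start in GRCm38.p6, read 5′ to 3′ on the strand of the gene, and capitals mark ACGTG or GCGTG on either strand (CACGT and CACGC are the other strand, and both readings of CACGTG count).
Kdm3a: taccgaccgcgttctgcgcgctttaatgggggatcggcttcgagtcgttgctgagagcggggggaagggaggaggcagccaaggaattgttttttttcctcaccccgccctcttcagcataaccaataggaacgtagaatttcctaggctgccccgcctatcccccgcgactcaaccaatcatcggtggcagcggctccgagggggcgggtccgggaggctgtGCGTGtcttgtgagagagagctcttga
Kdm4c: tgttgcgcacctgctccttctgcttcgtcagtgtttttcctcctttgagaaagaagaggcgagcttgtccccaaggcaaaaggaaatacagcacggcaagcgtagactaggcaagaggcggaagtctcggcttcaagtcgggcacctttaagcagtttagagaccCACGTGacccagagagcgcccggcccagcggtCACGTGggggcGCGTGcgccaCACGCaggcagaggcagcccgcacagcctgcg
Kdm7a: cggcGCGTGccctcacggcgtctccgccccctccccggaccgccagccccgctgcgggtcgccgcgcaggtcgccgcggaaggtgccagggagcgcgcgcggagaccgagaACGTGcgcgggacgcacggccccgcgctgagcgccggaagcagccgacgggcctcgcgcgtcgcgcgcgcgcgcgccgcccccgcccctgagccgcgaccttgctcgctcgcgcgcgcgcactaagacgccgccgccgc
The window of Kdm3a lies at chr6:71632918-71633167 (minus strand) and held 1 match, which began 27 bases before the start. That of Kdm4c lies at chr4:74251629-74251878 (plus strand) and held 6 matches, whereas a further window of Kdm4c and 2 further windows of Kdm3a held 0. The window of Kdm7a lies at chr6:39206774-39207023 (minus strand) and held 2 matches. At least 1 match was present in 38.6% of all 32851 promoter windows and in 4 of the 9 windows of the members (1 each of Kdm3a, Kdm4c, Kdm5b and Kdm6a, and 0 for Kdm1a and Kdm4a), a share near that of all windows. The promoters of Kdm6b, Kdm4b, Kdm5a and Kdm3b were not analysed here. A match describes the letters of a window and does not show binding. Whether matches go with changes of the transcript was not tested.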

How the data were processed

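The sorted ASCs gave total RNA for libraries of the SMARTer stranded pico input kit. The processing notes of the submitters name Trim Galore, HISAT2, featureCounts, DESeq2 and the build mm9, and the annotation is not given in the sources used here. Each deposited value is a signal for 1 gene symbol, read counts that the authors had normalized with 1 size factor per library. In every column 100% of values were whole multiples of 1 step within a tolerance of 0.001, so whole reads were recovered (1 read was worth 0.534 to 2.27 normalized reads), and the 2 shallowest libraries, wild-type replicate 1 and mfn2-/- replicate 4, had the least precision. In the absence of molecular identifiers, counting error is a lower limit. Columns not assigned to a library numbered 0.

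Groups and replicate numbers were taken from the titles. Genes with a mean of at least 10 entered limma 3.58.1 (R 4.3.3) as log2(value + 1), which understates changes of weak genes, with an intensity trend and two-sided Benjamini-Hochberg adjustment over all 11754 genes at 0.05. Genotype was tested alone, and genotype by library kind and library kind in fits with both terms. Adjusted p values in the text come from limma unless edgeR 4.0.16 (1158 genes called) or DESeq2 1.42.0 (1737), run on the recovered reads, is named. The genotype fit of each of these tools was checked on simulated counts, and the fits with library kind were not. Exon lengths are exon unions of GENCODE M21 (GRCm38), another build than mm9, and chromosome numbers are from it. Tables and figures were made in Python 3.11.15.

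The members and gene lists were chosen with earlier results of these data known. All members, all other demethylases tested, Mfn2, Hif1a, Ddx3y and Eif2s3y are named. Of the methylation and partner lists the called genes are named, highest mean first and at most 6 a list, or with none called the 2 with the smallest p. The 5 genes most like Kdm6b are named with a Pearson r as a description. Setd1b is named in the account of the alternatives because it was called there, a choice made after its values were seen. Alternatives were pseudocounts of 0.1 and 10, no filter, a mean of at least 50, equal totals, quantile normalization, no intensity trend, library weights, each library left out, edgeR, DESeq2, a replicate block, a library kind term and, for levels, the longest transcript.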

Additional observations from a re-analysis of the deposited data

Results flagged for a closer look

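The genotype difference of Kdm6b differed between the library kinds, by 1.37 on the log2 scale (limma interaction, adjusted p = 0.0173), with 1.57 in libraries with and 0.20 in libraries without Y-linked reads. The same test gave 1.27 for Jmjd1c (limma adjusted p = 0.00732), with 1.40 and 0.13. Each kind holds 2 libraries per genotype.

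In mfn2-/- libraries, Kdm1b had 1 library far below the others, replicate 3 at 99.5 normalized reads against 145, 145 and 149. Jhdm1d also had 1 such library, replicate 1 at 1015 against 1400, 1405 and 1431. In both, the gap exceeded the 95% critical value of the Dixon test for 4 libraries. Chance gives this in about 1 in 20 groups, or 2.7 of the 54 groups tested, and 2 were found.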

How the results depend on the processing

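Between genotypes 1217 genes were called, with 633 under no intensity trend (113 higher and 520 lower, against 469 and 748), 3037 with library weights and 670 to 1307 with 1 library left out (lowest without wild-type replicate 3, and 749 without replicate 4). The interaction of genotype and library kind gave 173 calls, with 109 under no filter, 0 under no intensity trend (limma, 1191 at an unadjusted p under 0.05), 833 with DESeq2 and 31 to 1338 with 1 library left out. Library kind gave 26 calls, with 66 at a pseudocount of 10, 9 under no filter, 99 with quantile normalization, 8 with no trend, 70 with library weights, 232 with DESeq2 and 3 to 21 with 1 library left out. Of the members, 0 were called, with 1 (Kdm6b) under quantile normalization and with the library kind term, 3 (Kdm3a, Kdm5a and Kdm6b) with library weights and 0 to 1 with 1 library left out. Of the other demethylases 1 was called, with 2 under equal totals, quantile normalization or the replicate block, 0 with no trend, 3 with library weights and 0 to 1 with 1 library left out. Of the methylation genes 1 was called, with 2 at a pseudocount of 10, a mean of at least 50 or the kind term (Mll5 and Setd1b), 0 with quantile normalization or no trend, 12 with library weights, 3 with DESeq2 and 0 to 2 with 1 library left out. Of the partners 0 were called in every alternative. The cause of these shifts was not tested.

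Some uncalled log2 changes turned sign. With library weights these were Kdm4b (-0.066), Kdm6a (0.25), Kdm2a (0.20), Kdm2b (-0.086) and Mina (-0.076). Without the 2 shallowest libraries, an alternative chosen after seeing the data, they were Kdm6a (0.076), Kdm1b (-0.038), Kdm2a (0.088) and Kdm2b (-0.16), and 1567 genes were called. With 1 library left out, ranges that crossed 0 were -0.081 to 0.23 for Kdm1a, -0.032 to 0.20 for Kdm4b, -0.67 to 0.028 for Kdm6a, -0.28 to 0.056 for Kdm2a, -0.14 to 0.64 for Kdm2b, -0.076 to 0.38 for Kdm5c, -1.24 to 1.36 for Kdm5d, -0.72 to 1.82 for Uty, -0.12 to 0.99 for Mina and -0.23 to 0.43 for Jmjd6. With the longest transcript as the length, the wild-type levels per kb of 7 members moved by at least 1 SD, among them Kdm3b (52.0 to 115), Kdm5b (25.5 to 48.5), Kdm1a (36.8 to 63.0) and Kdm3a (65.3 to 111), while Kdm6b (328 to 343), Kdm6a and Kdm4b did not.

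The labels give both genotypes the replicate numbers 1 to 4. Deviations of same-numbered libraries correlated at -0.03, -0.05, 0.04 and -0.11, so the numbers were not taken to pair libraries. With the replicate block 1043 genes were called for genotype and 0 members, Kdm6b having an adjusted p of 0.0693 in limma, and Jmjd1c passed beside Jhdm1d.

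With 4 libraries per genotype and 1880464 reads in the shallowest, the 95% interval of every member reaches a log2 change of over 0.5 in size in at least 1 direction. Kind tests rest on 2 libraries per cell of the design, and markers of another cell type differ between the genotypes throughout.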
